A study of Rattus norvegicus with 11 samples.

Results

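The genes described here encode enzymes that conjugate, hydrolyse or oxidise foreign and reactive compounds in rat alveolar epithelium. They were chosen by symbol: cytosolic glutathione transferases (Gst followed by a class letter), microsomal glutathione transferases (Mgst), epoxide hydrolases (Ephx), aldehyde dehydrogenases (Aldh), UDP-glucuronosyltransferases (Ugt), sulfotransferases (Sult) and carboxylesterases (Ces followed by a number). A probe set is the group of short probes that reports 1 transcript on the array. Of 4736 genes measured by a probe set annotated to that gene alone, 50 belonged to these families. They comprised 12 glutathione transferases, 3 microsomal glutathione transferases, 2 epoxide hydrolases, 9 aldehyde dehydrogenases, 10 UDP-glucuronosyltransferases, 9 sulfotransferases and 5 carboxylesterases. The 50 genes had 83 such probe sets, and where a gene had several, the brightest on average was used.

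Total RNA from alveolar type I (TI) and type II (TII) cells of rat lung was hybridised to 11 Affymetrix rat arrays. TI cells are the thin cells that cover most of the gas exchange surface, and TII cells are the cuboidal cells that make surfactant. The groups were 4 arrays of freshly isolated TI cells and 4 of freshly isolated TII cells, both labelled day 0, and 3 arrays of TII cells in culture, labelled day 7. No treatment, strain, sex, age, culture surface or purification step is named in the labels, and groups follow the sample descriptions because the source entry reads TI for every array. Nothing in the labels says whether arrays came from separate animals, so the p-values measure the spread between these arrays, which may be technical. Culture and the 7 days that went with it cannot be told apart. In bulk RNA, fewer cells of a type and less RNA per cell cannot be told apart either.

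Glutathione transferases join the thiol of glutathione to reactive electrophiles, and several of them also reduce lipid peroxides. Epoxide hydrolases open reactive epoxides, many of them products of cytochrome P450 enzymes, and aldehyde dehydrogenases oxidise aldehydes to acids. Glucuronidation and sulfation make small molecules more soluble, and carboxylesterases split esters and amides. In lung these enzymes are best known from airway club cells and from TII cells, which carry much of the tissue's capacity to handle inhaled chemicals.

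The labels were first compared with defining markers, in log2 signal. Pdpn, a membrane glycoprotein of TI cells, lay between 10.03 and 10.23 in fresh TI arrays, between 5.57 and 5.75 in fresh TII arrays and between 9.20 and 9.47 in cultured TII arrays. Sftpc, the surfactant protein C of TII cells, lay between 13.00 and 13.16 in fresh TII arrays and between 5.04 and 5.24 after culture. It lay between 10.73 and 12.51 in the fresh TI arrays, so a TII transcript was measured in the RNA labelled TI. Array medians were similar, between 5.43 and 5.51, but the SD over probe sets was lower in fresh TI arrays (1.77 to 1.85) than in fresh TII (1.92 to 1.95) and cultured arrays (1.95 to 1.97). Correlations between arrays of a group lay between 0.978 and 0.998. The 3′ minus 5′ difference of the beta-actin control probe sets was 0.21 to 0.43 in fresh TI and 0.32 to 0.43 in fresh TII arrays, against -0.33 to -0.08 in cultured arrays. For the GAPDH controls it was 0.41 to 0.69 in fresh TI, 0.47 to 0.57 in fresh TII and 0.30 to 0.45 in cultured arrays. The beta-actin measure moved with culture, while the cultured GAPDH range overlapped that of fresh TI arrays. The part of RNA quality in the culture results was not tested.

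Fresh TI and fresh TII cells differed in many of these genes in both directions. A gene was called when its limma p, adjusted by Benjamini-Hochberg over 8740 probe sets, was under 0.05. In TI relative to TII cells 16 genes (32%) were higher, 14 (28%) were lower and 20 were not called. Over all 4736 genes, 33.0% were higher and 21.2% lower. The share called was therefore near that of all genes, and the median log2 difference, 0.14, was near the 0.11 of all genes. The sizes were less even. Among calls of at least 2-fold in which the arrays of the groups did not overlap, 9 genes were lower and 2 higher in TI cells, against 5.00% lower and 1.92% higher over all genes.

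In culture the calls ran mostly downward. Relative to fresh TII cells 4 genes (8%) were higher and 18 (36%) lower in cultured TII cells, where 20.5% of all genes were higher and 14.0% lower. At least 2-fold and without overlap, 1 gene was higher and 10 were lower, against 4.60% and 4.03% of all genes. The median difference was -0.18, and -0.01 over all genes. Between fresh TI and cultured TII cells 28 genes were higher in TI cells and 5 lower, with 34.2% of all genes higher and 25.8% lower. Past 2-fold without overlap, 4 were higher and 2 lower in TI cells, against 1.86% and 6.61% of all genes. Each pair of comparisons shares one group of arrays, so they are not independent. In all, 14 genes met the 2-fold rule without overlap in at least 1 comparison, and these are given array by array below.

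**Figure D1:**
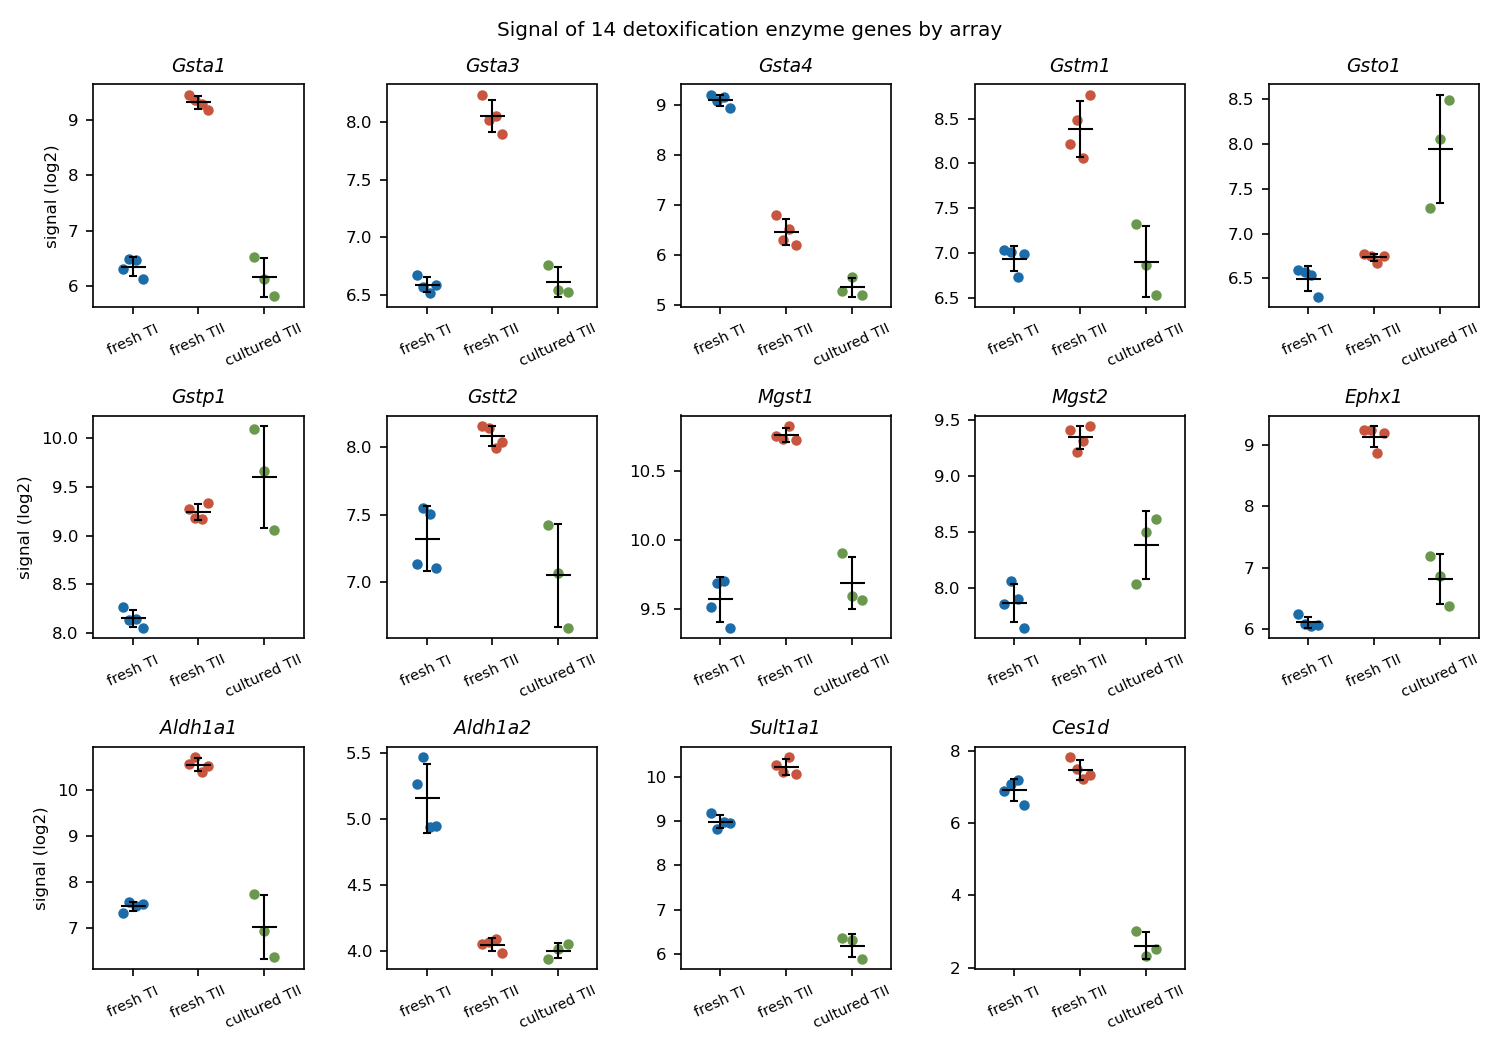
Log2 signal of the 14 genes that were called, at least 2-fold apart and without overlap between arrays in at least 1 comparison, 1 panel per gene. Points are arrays, 4 each of fresh TI and fresh TII cells and 3 of the culture, and black marks are the group mean with its SD. Gsta4 was highest in TI cells (8.94 to 9.19), while Gsta1, Ephx1 and Aldh1a1 were highest in fresh TII cells.

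Alpha-class glutathione transferases showed the widest range of the GST family, and their genes ran in opposite directions. Gsta1 and Gsta3 were lower in TI cells and in cultured TII cells than in fresh TII cells, whereas Gsta4, which acts on the lipid peroxidation product 4-hydroxynonenal, was highest in TI cells. The annotated start regions of these genes are printed because antioxidant response elements are known from promoters of this class and because the genes differ in which cores their start regions hold. Sequences are from RefSeq on the rat assembly GRCr8, 250 bases before to 50 after an annotated start, in the direction of the gene. Capitals mark TGACNNNGC, the core of the antioxidant response element, or GCGTG, the core bound by the aryl hydrocarbon receptor, each on either strand (CACGC is GCGTG on the opposite strand). Gsta1 lies at chr9:31216483-31216782 (minus strand), the upstream Gsta3 start at chr9:31154739-31155038 (plus strand) and Gsta4 at chr8:87947015-87947314 (plus strand).
Gsta1: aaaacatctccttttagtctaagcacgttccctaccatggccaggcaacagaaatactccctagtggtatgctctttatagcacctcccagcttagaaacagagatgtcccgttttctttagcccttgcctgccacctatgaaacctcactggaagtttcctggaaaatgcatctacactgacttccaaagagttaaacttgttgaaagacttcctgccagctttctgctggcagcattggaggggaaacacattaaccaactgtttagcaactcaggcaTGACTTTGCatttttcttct
Gsta3: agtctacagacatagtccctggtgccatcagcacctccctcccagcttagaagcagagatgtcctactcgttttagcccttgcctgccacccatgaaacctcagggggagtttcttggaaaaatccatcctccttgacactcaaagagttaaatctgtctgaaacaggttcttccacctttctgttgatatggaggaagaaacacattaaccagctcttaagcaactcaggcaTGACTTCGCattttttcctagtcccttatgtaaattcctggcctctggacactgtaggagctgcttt
Gsta4: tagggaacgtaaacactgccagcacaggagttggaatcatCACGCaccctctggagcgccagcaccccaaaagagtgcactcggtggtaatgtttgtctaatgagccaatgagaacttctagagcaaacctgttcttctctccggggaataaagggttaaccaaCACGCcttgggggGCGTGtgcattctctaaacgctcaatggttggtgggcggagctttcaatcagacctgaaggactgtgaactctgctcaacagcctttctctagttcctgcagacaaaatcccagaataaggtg
The Gsta1 window holds TGACTTTGC from base 31, counting the annotated start as base 1, and the Gsta3 window holds TGACTTCGC 17 bases before the start. Gsta1 and Gsta3 are next to each other in the RefSeq gene table, with 0 genes between them. The Gsta4 window has no antioxidant core and 3 matches to GCGTG. A second annotated Gsta3 start had 1 GCGTG match and no antioxidant core. Over all 33469 RefSeq windows, 12.1% held the antioxidant core and 29.7% held GCGTG. Of the 50 genes 41 had a window, 43 windows in all, of which 7 (16.3%) held the antioxidant core and 10 (23.3%) held GCGTG.

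Gsta1, which conjugates electrophiles and reduces lipid hydroperoxides, read 9.46, 9.36, 9.28 and 9.18 in the fresh TII arrays, 6.52, 6.13 and 5.82 in the cultured arrays and 6.31, 6.49, 6.46 and 6.13 in the TI arrays. All fresh TII arrays were above all others, and the cultured and TI arrays overlapped. The log2 difference was -2.97 ± 0.13 (SE) in TI relative to TII cells, 7.83-fold lower (limma adjusted p = 2.46e-09), and -3.16 ± 0.14, 8.95-fold lower, in culture (adjusted p = 2.45e-09). TI and cultured cells differed by 0.19 (95% interval -0.12 to 0.51, limma adjusted p = 0.258). Without cultured replicate 1 that difference was 0.38 and was called (limma adjusted p = 0.0253). The chosen Gsta1 probe set carries a suffix for probes shared within a gene family, and both other Gsta1 probe sets, of the same kind, were also lower in TI cells (-3.06 and -3.44) and in culture (-3.35 and -3.54).

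Gsta3, also of the alpha class, read 8.24, 8.02, 8.05 and 7.90 in fresh TII arrays, 6.76, 6.55 and 6.53 after culture and 6.68, 6.57, 6.52 and 6.59 in TI arrays. Fresh TII arrays again stood above the rest without overlap. The differences were -1.47 ± 0.08 in TI cells (limma adjusted p = 2.19e-08) and -1.44 ± 0.09 in culture (adjusted p = 5.26e-08), 2.76-fold and 2.71-fold lower than in fresh TII cells. One other Gsta3 probe set gave -1.47 and -1.65 for these comparisons, and another gave -0.41 and -0.40, all called.

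Gsta4 read 9.19, 9.09, 9.16 and 8.94 in TI arrays, 6.80, 6.31, 6.53 and 6.21 in fresh TII arrays and 5.30, 5.57 and 5.21 in cultured arrays. The 3 groups did not overlap, with TI cells highest and cultured cells lowest. Gsta4 was 6.20-fold higher in TI than in fresh TII cells (2.63 ± 0.12, limma adjusted p = 3.44e-09), fell by 1.10 in culture (adjusted p = 2.30e-05) and was 13.3-fold higher in TI than in cultured cells. Its second probe set also was higher in TI than in fresh TII cells (2.07) and lower in culture (-0.50).

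Of the mu class, Gstm1 was lower in both TI and cultured TII cells. It read 8.22, 8.49, 8.06 and 8.77 in fresh TII arrays, 7.32, 6.86 and 6.54 in cultured arrays and 7.03, 7.01, 6.73 and 6.99 in TI arrays. Every fresh TII array was above every other array. The difference was -1.44 ± 0.17 for TI (limma adjusted p = 1.94e-05) and -1.48 ± 0.18 for culture (adjusted p = 3.09e-05), and the remaining Gstm1 probe sets gave -2.31 and -2.59 for TI and -1.86 and -2.14 for culture. The other mu-class genes moved less. Gstm2, next to Gstm1 in the gene table, fell by 0.36 in culture (adjusted p = 0.00919). Gstm5 was higher by 0.23 in TI cells and by 0.38 in culture, and Gstm7 was higher by 0.40 in TI than in cultured cells. A second Gstm5 probe set was called in culture (0.54) but not in TI cells (0.21).

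Pi, omega and theta genes followed separate patterns. Gstp1, the pi-class enzyme, read 9.27, 9.18, 9.17 and 9.34 in fresh TII arrays, 8.27, 8.14, 8.14 and 8.05 in TI arrays and 10.10, 9.67 and 9.05 in cultured arrays. TI arrays were below all others, while the cultured arrays spread to both sides of the fresh TII arrays. Gstp1 was 2.13-fold lower in TI than in fresh TII cells (-1.09 ± 0.16, limma adjusted p = 0.000150) and 2.74-fold lower than in cultured cells. Its difference in culture, 0.37, was not called (limma adjusted p = 0.139), but without cultured replicate 3 it was 0.64 and called (adjusted p = 0.000968), and the other Gstp1 probe set gave 0.50 (adjusted p = 0.0399). The start regions of Gstp1 (chr1:210769656-210769955, minus strand) and of Ephx1, described below (chr13:95263068-95263367, minus strand), are shown in the same form because both also hold the antioxidant core.
Gstp1: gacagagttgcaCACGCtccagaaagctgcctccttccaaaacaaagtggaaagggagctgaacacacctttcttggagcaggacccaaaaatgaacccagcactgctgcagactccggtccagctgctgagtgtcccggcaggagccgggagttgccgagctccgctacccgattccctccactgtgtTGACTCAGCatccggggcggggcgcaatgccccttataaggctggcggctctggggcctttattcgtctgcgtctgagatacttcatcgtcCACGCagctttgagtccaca
Ephx1: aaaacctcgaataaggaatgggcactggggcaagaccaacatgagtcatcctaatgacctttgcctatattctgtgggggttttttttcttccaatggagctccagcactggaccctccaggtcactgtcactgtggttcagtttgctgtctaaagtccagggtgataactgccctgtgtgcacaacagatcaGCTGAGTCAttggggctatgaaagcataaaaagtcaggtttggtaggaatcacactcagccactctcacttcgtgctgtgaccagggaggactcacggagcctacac
The Gstp1 match, TGACTCAGC, begins 61 bases before the start, and its window also has 2 GCGTG matches. The Ephx1 match is on the opposite strand (GCTGAGTCA as printed) and begins 57 bases before this start. A second annotated Ephx1 start held neither core. The genes given array by array had 14 windows, of which 5 held the antioxidant core and 5 held GCGTG. Gstt2 and Mgst2 had no window, and Gsta3 and Ephx1 had more than 1. Aldh1a2, higher in TI than in fresh TII cells (1.11), held both cores. The windows of Gstm1, Mgst1, Aldh1a1 and Sult1a1, all lower in TI than in fresh TII cells, held neither. A link between cores and direction was not tested.

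Gsto1, an omega-class thioltransferase that also reduces dehydroascorbate, was the GST gene that rose at least 2-fold in culture. It read 7.29, 8.06 and 8.48 in cultured arrays, 6.77, 6.74, 6.68 and 6.75 in fresh TII arrays and 6.60, 6.57, 6.54 and 6.29 in TI arrays. The cultured arrays were above all others but spread from 7.29 to 8.48. The rise was 1.21 ± 0.20, 2.31-fold (limma adjusted p = 0.000366), and TI cells were 2.72-fold lower than cultured cells. TI and fresh TII arrays did not overlap, yet the difference of -0.24 was called, of the settings tried, only in the fit to these groups alone (limma adjusted p = 0.0282, against 0.292). A second Gsto1 probe set rose by 1.79 in culture.

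Gstt2, of the theta class, read 8.16, 8.14, 7.996 and 8.04 in fresh TII arrays, 7.43, 7.07 and 6.66 in cultured arrays and 7.14, 7.55, 7.51 and 7.10 in TI arrays. Fresh TII arrays were above the rest. It was lower in culture, with a difference of -1.03 ± 0.16 (limma adjusted p = 0.000208), and in TI cells, with -0.76 ± 0.15 (adjusted p = 0.00111). Gstt1, of the same class, was lower in TI cells (-0.50) and in culture (-0.69). Gstk1, a mitochondrial and peroxisomal enzyme, was higher in TI than in fresh TII cells by the chosen probe set (0.53) and lower by its other one (-0.33), both called, so its direction was not settled. In total 3 of the 12 GST genes were higher and 6 lower in TI than in fresh TII cells, against 33.0% and 21.2% of all genes. In culture 2 were higher and 7 lower, against 20.5% and 14.0% of all genes.

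Microsomal glutathione transferases are membrane enzymes, and the family was split in TI cells. Mgst1, which also has peroxidase activity, read 10.76, 10.74, 10.83 and 10.72 in fresh TII arrays, 9.90, 9.60 and 9.57 in cultured arrays and 9.52, 9.69, 9.71 and 9.36 in TI arrays. Mgst2, which can make leukotriene C4, read 9.41, 9.21, 9.31 and 9.44 in fresh TII arrays, 8.03, 8.50 and 8.61 in cultured arrays and 7.85, 8.06, 7.89 and 7.64 in TI arrays. For both genes the fresh TII arrays were above the rest without overlap, and the TI and cultured arrays overlapped. Mgst1 was lower in TI cells (-1.19 ± 0.10, limma adjusted p = 5.19e-07) and in culture (-1.07 ± 0.10, adjusted p = 2.79e-06). Mgst2 was lower in TI cells (-1.48 ± 0.12, limma adjusted p = 8.15e-07) and in culture (-0.96 ± 0.13, adjusted p = 8.02e-05). Between TI and cultured cells Mgst2 was lower in TI cells (-0.52, limma adjusted p = 0.00540), but not with quantile normalisation (-0.21, adjusted p = 0.163). Mgst3, a related enzyme, was higher in TI cells, at 7.61 to 7.94 against 7.03 to 7.23 in fresh TII arrays (limma adjusted p = 0.000222).

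Of the epoxide hydrolases, Ephx1 was lower in TI and cultured cells than in fresh TII cells. This microsomal enzyme opens epoxides made from foreign compounds. It read 9.24, 9.24, 8.87 and 9.20 in fresh TII arrays, 7.19, 6.86 and 6.38 in cultured arrays and 6.24, 6.08, 6.04 and 6.07 in TI arrays. The groups did not overlap, with fresh TII highest and TI lowest. Ephx1 was 8.19-fold lower in TI than in fresh TII cells (-3.03 ± 0.14, limma adjusted p = 3.86e-09) and 5.03-fold lower in culture (-2.33 ± 0.16, adjusted p = 9.20e-08), and lower in TI than in cultured cells (-0.70 ± 0.16, adjusted p = 0.00214). Ephx2, the soluble enzyme that hydrolyses fatty acid epoxides, differed by 0.08 between TI and fresh TII cells and by -0.22 in culture, neither of them called. It was higher in TI than in cultured cells by 0.30 (adjusted p = 0.0101). Of its 3 other probe sets, 2 were called higher in TI than in fresh TII cells (0.32 and 0.35), and 2 were not called between TI and cultured cells (0.22 and 0.05).

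Aldehyde dehydrogenases that make retinoic acid ran in opposite directions in TI cells. Aldh1a1, the cytosolic retinal dehydrogenase, read 10.58, 10.74, 10.41 and 10.52 in fresh TII arrays, 7.75, 6.95 and 6.37 in cultured arrays and 7.33, 7.56, 7.48 and 7.52 in TI arrays. Fresh TII arrays were far above the others, and the TI arrays lay within the range of the cultured arrays. It was 8.52-fold lower in TI cells (-3.09 ± 0.21, limma adjusted p = 1.16e-07) and 11.7-fold lower in culture (-3.54 ± 0.23, adjusted p = 6.26e-08). The difference between TI and cultured cells, 0.45, was not called (limma adjusted p = 0.102), and without cultured replicate 1 it was 0.81 and called (adjusted p = 0.000670).

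Aldh1a2, a retinal dehydrogenase known from embryonic development, read 5.26, 5.47, 4.94 and 4.94 in TI arrays, 4.05, 4.07, 4.09 and 3.98 in fresh TII arrays and 3.94, 4.01 and 4.05 in cultured arrays. TI arrays were above all others at a signal below the array medians. The difference was 1.11 ± 0.11 from fresh TII cells (limma adjusted p = 3.36e-06), and in culture it was -0.05 (95% interval -0.30 to 0.21). Other family members moved by less than 2-fold. Aldh2, the mitochondrial acetaldehyde dehydrogenase, was lower in TI cells (-0.52) and in culture (-0.89). Aldh7a1, an enzyme of lysine breakdown, was lower in TI cells (-0.19) and higher in culture (0.53), and Aldh3a1, known as the abundant corneal enzyme, was higher in TI cells (0.43). Aldh1l1, of folate metabolism, and Aldh6a1, of valine breakdown, fell by 0.41 and 0.27 in culture. Aldh3a2 and Aldh5a1 were not called in any comparison, although another Aldh3a2 probe set was lower in culture (-0.49). The second Aldh7a1 probe set gave -0.65 in TI cells and 0.72 in culture.

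UDP-glucuronosyltransferases measured by single-gene probe sets moved little. In TI relative to fresh TII cells 3 of 10 were called higher, against 33.0% of all genes. None was lower by limma, also at an unadjusted p under 0.05, at which 5 were higher. The 3 called were Ugt2b (0.52), Ugt2b1 (0.30) and Ugt2b37 (0.59), all of the family that handles steroids and bile acids. In culture Ugt8, which makes galactosylceramide, was the gene called, at -0.31, but its second probe set was not called (0.003). Between TI and cultured cells 6 of 10 were higher in TI cells, by 0.30 to 0.75, against 34.2% of all genes. Most of these signals were low, and the family median of 0.20 in TI relative to fresh TII cells compares with 0.11 for all genes. With the SD of the arrays equalised, 2 of 10 were higher in TI than in fresh TII cells and 4 of 10 higher in TI than in cultured cells. A second probe set of Ugt2b gave 0.06, which was not called, and the remaining one gave 0.62.

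Probe sets shared by several Ugt1a-type genes gave another picture and are reported without a gene name. Of 24 probe sets annotated to several genes of these enzyme families, 4 matched 8 Ugt genes each, and all 4 were lower in TI than in fresh TII cells, with differences of -1.41 to -1.07. They were also lower in TI than in cultured cells, with differences of -0.97 to -0.60, and 2 of them were lower in culture (-0.60 and -0.53). A further 8 matched 6 Ugt genes each, of which 1 was higher and 3 were lower in TI than in fresh TII cells (-0.67 to 0.40). Of all 8740 probe sets, 2996 were higher and 1787 lower in TI than in fresh TII cells. Further, 2111 were lower in TI than in cultured cells and 1249 lower in culture. Since each shared probe set matches several Ugt genes, they may measure transcripts in common and are not separate results.

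Sulfotransferases were led by Sult1a1, the phenol sulfotransferase. It read 10.27, 10.12, 10.46 and 10.06 in fresh TII arrays, 9.18, 8.83, 8.99 and 8.97 in TI arrays and 6.36, 6.31 and 5.89 in cultured arrays. The 3 groups did not overlap, and the cultured arrays were far below both fresh groups. Sult1a1 was 16.5-fold lower in culture (-4.04 ± 0.13, limma adjusted p = 1.21e-10) and 2.36-fold lower in TI than in fresh TII cells (-1.24 ± 0.12, adjusted p = 3.41e-06). It was 6.99-fold higher in TI than in cultured cells. Its second probe set gave -4.94 in culture and -1.71 in TI cells.

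The remaining sulfotransferases differed by 0.57 or less in each comparison. In TI relative to fresh TII cells 5 were higher, by 0.29 to 0.42, where 33.0% of all genes were higher. These were Sult1b1, Sult1c2a, Sult2a1, Sult2a2 and Sult5a1. With the SD of the arrays equalised, 2 sulfotransferases were called higher in TI than in fresh TII cells, Sult2a2 among them (0.46), while Sult1b1 lost its call (0.12, limma adjusted p = 0.312). None of the 9 was higher in culture by limma, also at an unadjusted p under 0.05, at which 2 were lower. With adjustment 1, Sult1a1, was lower in culture, and 8 of 9 were higher in TI than in cultured cells, where 34.2% of all genes were higher. With equal SD or quantile normalisation 6 of 9 were higher in TI than in cultured cells. Of the 3 other probe sets of Sult2a1, a hydroxysteroid sulfotransferase, 2 were higher in TI than in fresh TII cells (0.33 and 0.44) and 1 was not called (0.05).

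Carboxylesterases were led by Ces1d, an esterase that also cleaves triacylglycerol. It read 7.84, 7.48, 7.21 and 7.32 in fresh TII arrays, 6.88, 7.08, 7.20 and 6.50 in TI arrays and 3.02, 2.31 and 2.50 in cultured arrays. Cultured arrays were far below both fresh groups, which lay next to each other without overlap. In culture the difference was -4.85 ± 0.20 (limma adjusted p = 9.09e-10), and the gene was also called higher in TI than in cultured cells. No detection calls were used here, so the cultured signal is not shown to be above background and no fold is given. The difference between TI and fresh TII cells, -0.55 ± 0.18, was called (limma adjusted p = 0.0240), but not without fresh TII replicate 1 (-0.42), fresh TII replicate 2 (-0.54), TI replicate 1 (-0.54) or TI replicate 4 (-0.41), with limma adjusted p between 0.0505 and 0.0794. Ces1c was higher in TI cells (0.47) and in culture (0.32), although its second probe set was not called in culture (0.06). Ces1dl1 was lower in culture (-0.65) and higher in TI than in cultured cells (0.70). Ces2e was higher in TI than in fresh TII cells by 0.19, which became -0.03 when the SD of the arrays was equalised. Of 3 probe sets shared by 2 carboxylesterase genes each, 1 was lower in culture (-4.23) and also lower in TI than in fresh TII cells (-1.31). All 3 were higher in TI than in cultured cells (0.31 to 2.92), as were 3124 of all 8740 probe sets.

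**Figure D2:**
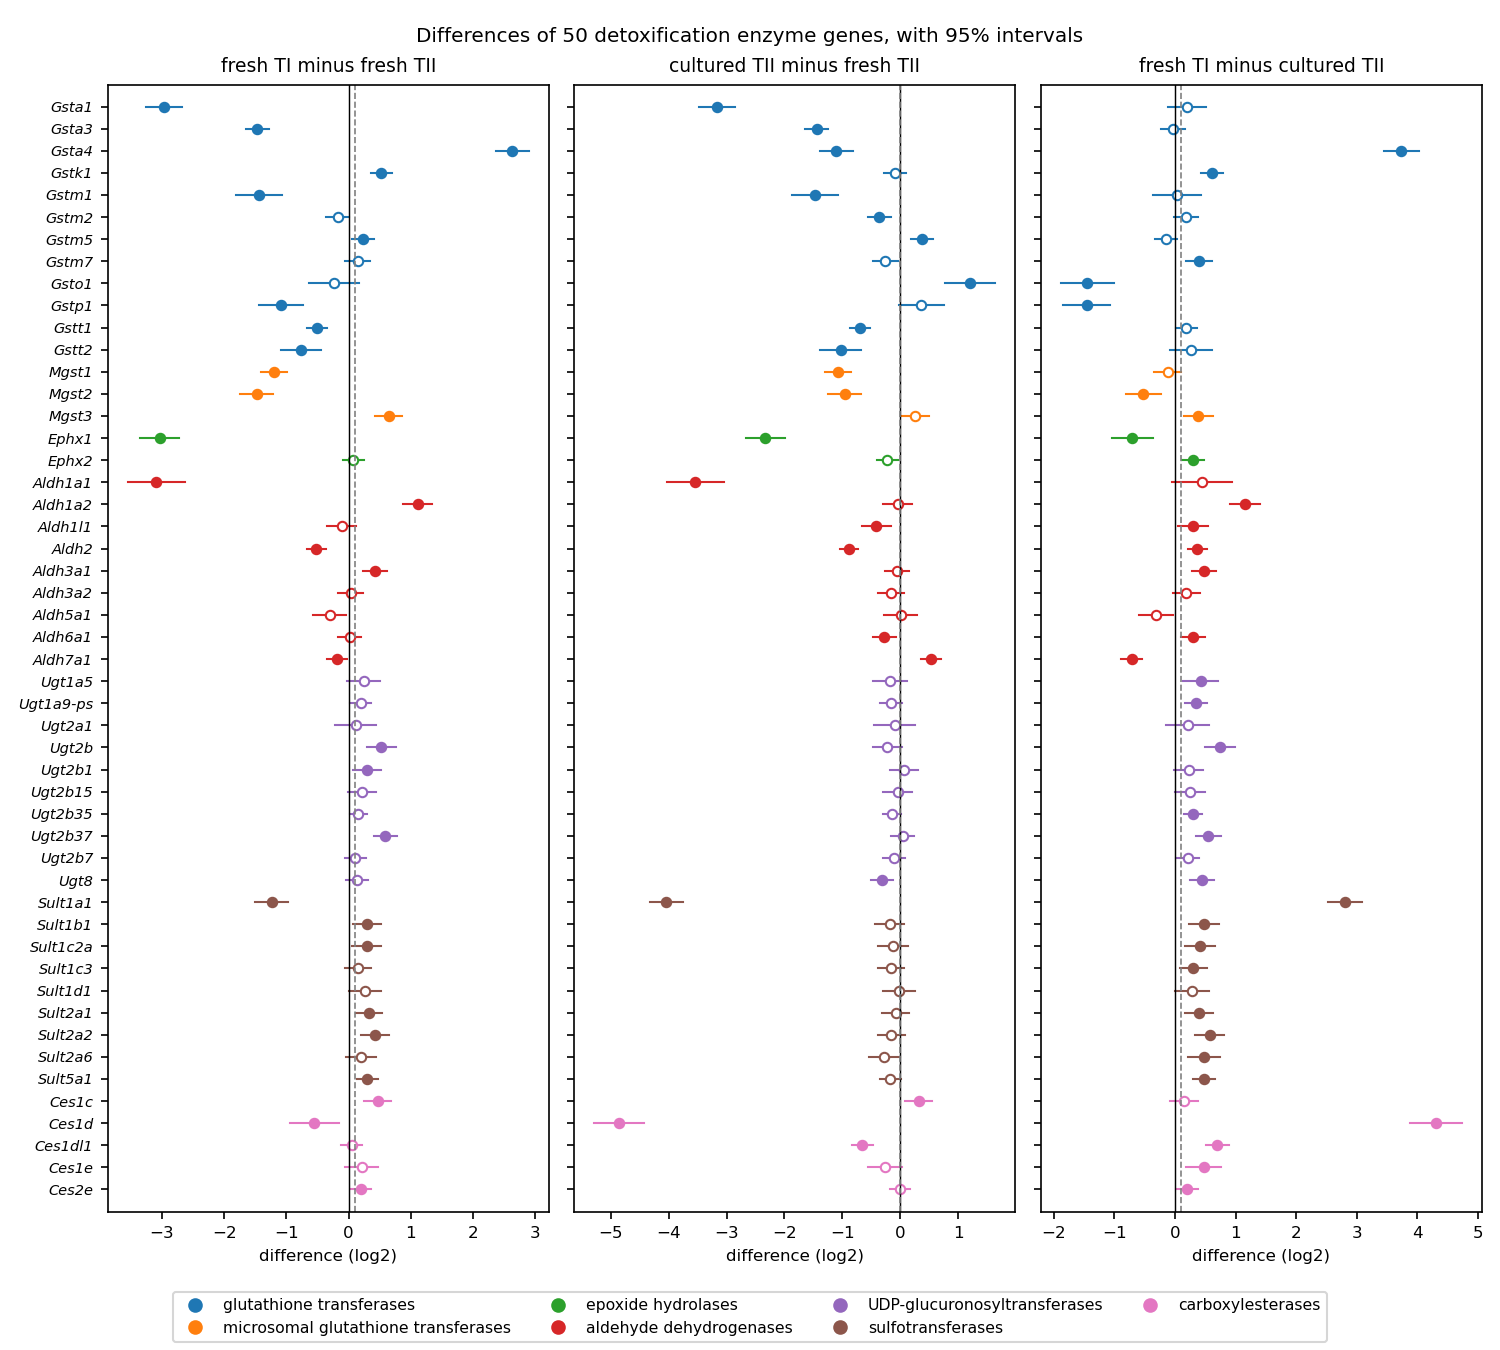
Log2 difference of each of the 50 genes, by family, in the 3 comparisons, with 95% intervals; filled points were called at an adjusted p under 0.05, open points were not, and the dashed line is the median of all genes. The left panel has 16 filled points above and 14 below 0, and the panel for culture has 4 and 18.

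Size of difference went with signal level. The median signal over all probe sets was 5.49, and 29 of the 50 genes lay above it. Of these brighter genes, 14 (48.3%) were lower and 6 (20.7%) higher in TI than in fresh TII cells. Of all brighter genes, 28.8% were lower and 29.7% higher. In culture 16 of the 29 (55.2%) were lower and 2 (6.9%) higher, against 17.7% and 28.2% of all brighter genes. Of the 21 dimmer genes, 10 were higher and 0 lower in TI than in fresh TII cells by limma (12 and 1 at an unadjusted p under 0.05), and 37.4% of all dimmer genes were higher and 11.1% lower. The median difference in TI relative to fresh TII cells was 0.16 over all dimmer genes and 0.045 over all brighter genes. TI arrays also had the lower SD. Of the Ugt and Sult genes called higher in TI than in fresh TII cells, Ugt2b, Sult2a2 and Sult5a1 lay above the median signal. The part of signal level or array SD in the Ugt and Sult calls was not tested.

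**Figure D3:**
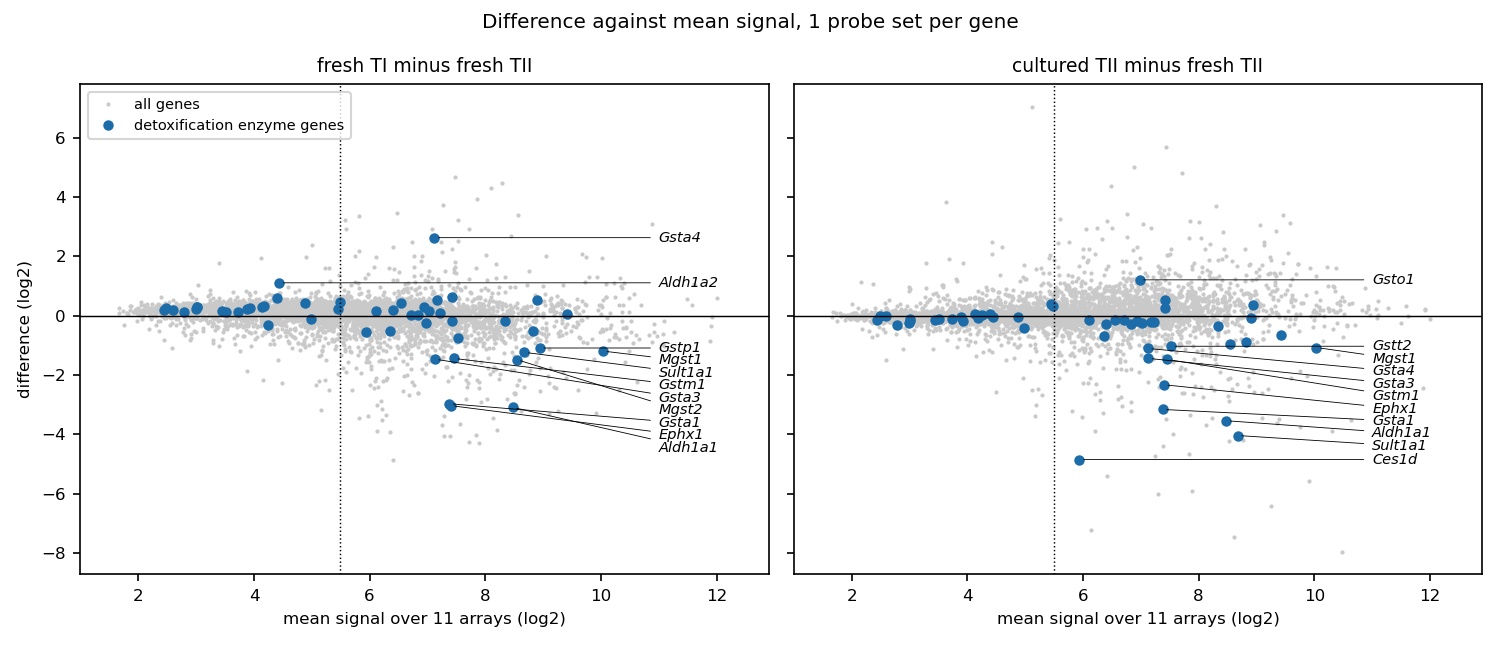
Log2 difference from fresh TII cells against mean log2 signal over 11 arrays, for TI cells (left) and cultured TII cells (right). Grey points are all genes and blue points the 50 enzyme genes, with those at least 2-fold apart named; the dotted line is the median signal of 5.49. The named genes below 0 lie to the right of that line in both panels.

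Of the 50 genes, 22 had more than 1 probe set, 33 further probe sets in all. In TI relative to fresh TII cells 25 of the 33 had the same call as the chosen one and 1 the opposite call, the Gstk1 probe set given above. In culture 29 had the same call and none the opposite, and between TI and cultured cells 22 had the same call, none the opposite, and 7 were not called where the chosen one was. Every probe set of Gsta1, Gsta3, Gsta4, Gstm1, Gstt2 and Sult1a1 kept the direction and the call of the chosen one against fresh TII cells, in TI cells and in culture. The probe sets of Gsta4 are named after the same sequence, as are those of Sult1a1, so they are not independent measures. Mgst1, Mgst2, Ephx1, Aldh1a1, Aldh1a2 and Ces1d rested on 1 probe set each.

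**Figure D4:**
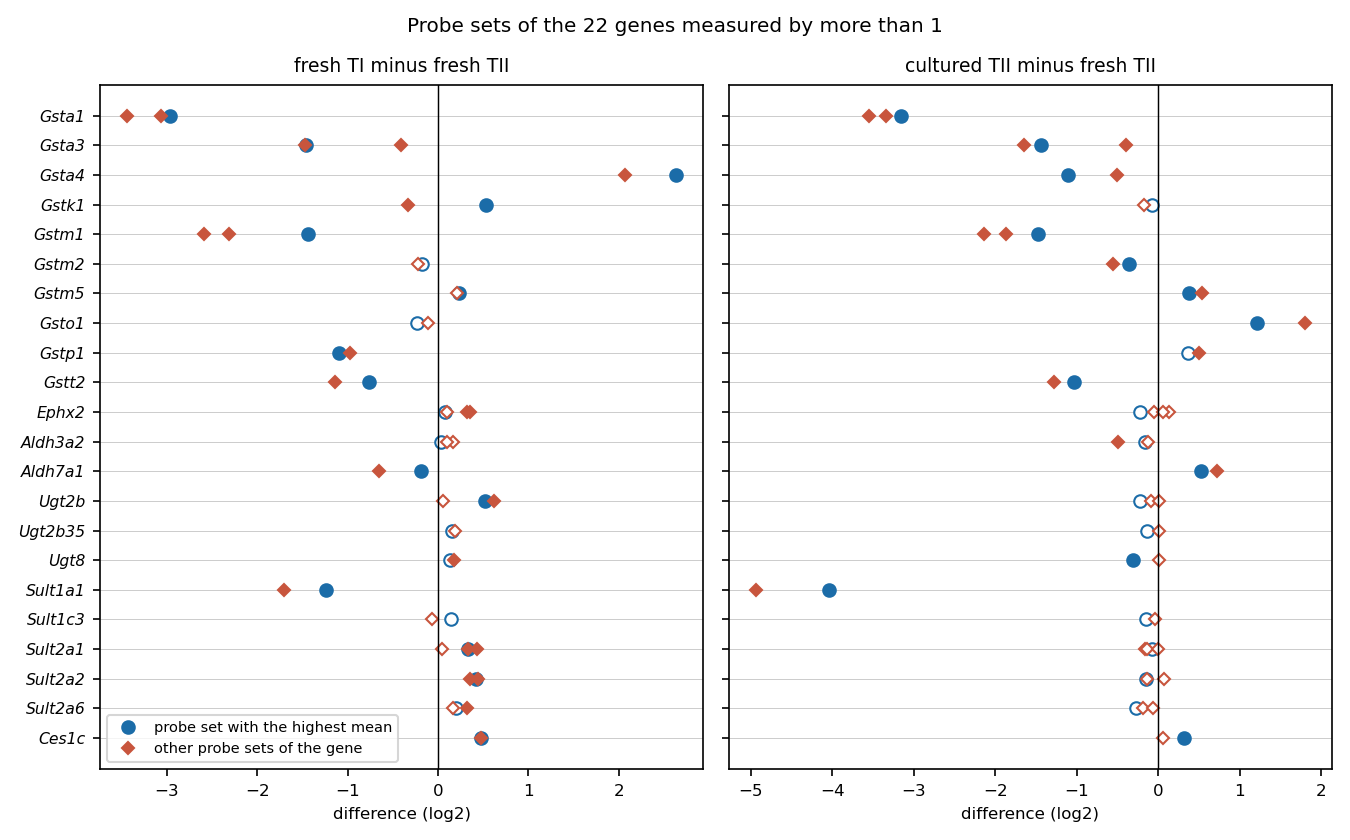
Log2 difference of every probe set of the 22 genes with more than 1, for TI (left) and cultured TII cells (right) relative to fresh TII cells. Circles are the probe sets chosen for the gene and diamonds the remaining ones, filled where called and open where not. Gsta1 probe sets lie between -3.44 and -2.97 in TI relative to fresh TII cells, and the Gstk1 pair lies on both sides of 0.

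Other genes that supply or use glutathione did not move one way. Of 19 measured, 4 were higher and 9 lower in TI than in fresh TII cells, 2 were higher and 4 lower in culture, and 6 were higher and 9 lower in TI than in cultured cells. Over all genes 33.0% were higher and 21.2% lower in TI than in fresh TII cells. These shares were 20.5% and 14.0% in culture, and 34.2% and 25.8% between TI and cultured cells. In each comparison more genes of the list were lower than higher, while over all genes more were higher. The list's median difference was -0.17 in TI relative to fresh TII cells and 0.04 in culture, against 0.11 and -0.01 over all genes. Nqo1, a quinone reductase, read 8.85, 8.89, 8.42 and 8.91 in fresh TII arrays, 8.95, 8.30 and 6.82 in cultured arrays and 6.16, 6.45, 6.60 and 6.24 in TI arrays. The TI arrays were below all others, and the cultured arrays reached from the fresh TII range down almost to the TI range. Nqo1 was lower in TI than in fresh TII cells (-2.41 ± 0.33, limma adjusted p = 7.38e-05), and its second probe set gave -0.87. Gpx1, which reduces hydrogen peroxide with glutathione, was higher in TI cells (1.27) and in culture (1.01). Its other probe sets gave 0.40 and 0.99 in TI cells, both called, and 0.10, which was not called, and 0.78 in culture. Gpx3, its secreted relative, was higher in TI cells (1.20). Oplah, which returns oxoproline to glutamate for glutathione synthesis, and Ggt5, a gamma-glutamyl transferase, were lower in culture (-0.99 and -0.66).

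Enzymes that work beside these families in oxidation and reduction changed in both directions. Of 28 measured, 13 were higher and 8 lower in TI than in fresh TII cells, 6 were higher and 12 lower in culture, and 12 were higher and 6 lower in TI than in cultured cells. Its medians were 0.13 in TI relative to fresh TII cells and -0.20 in culture. The shares of all genes given for the glutathione list (33.0% and 21.2%, 20.5% and 14.0%, 34.2% and 25.8%) hold for this list and the next ones too. The P450 gene Cyp2f4 was lower in TI cells (-4.07) and in culture (-4.39), as was Maob, a monoamine oxidase (-3.18 and -3.39). Cyp2a3, another P450 gene, was lower in TI cells (-2.68). Cyp4b1, a lung P450 gene, fell by 3.44 in culture and was higher by 3.91 in TI than in cultured cells. Cyp2b2 was higher in TI than in cultured cells by 3.82. Of 12 other conjugation and cofactor genes, 1 was higher and 5 lower in TI than in fresh TII cells, 1 was higher and 2 lower in culture, and 1 was higher and 4 lower in TI than in cultured cells, with medians of -0.13 in TI relative to fresh TII cells and -0.10 in culture. Papss1, which makes the sulfate donor for sulfotransferases, was lower in TI cells (-0.83) and in culture (-1.01), and Mat2a, which makes the methyl donor S-adenosylmethionine, was lower in TI cells (-1.28).

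Among 12 measured transcriptional regulators of these genes, 1 was higher and 2 lower in TI than in fresh TII cells, 4 were lower in culture, and 3 were higher and 1 lower in TI than in cultured cells, with medians of 0.04 in TI relative to fresh TII cells and -0.12 in culture. Nfe2l2 encodes Nrf2, which binds antioxidant response elements. It read 7.43, 7.42, 6.91 and 7.17 in fresh TII arrays, 6.35, 6.42 and 6.66 in cultured arrays and 5.39, 5.76, 5.93 and 4.84 in TI arrays. The 3 groups did not overlap. Nfe2l2 was lower in TI than in fresh TII cells (-1.75 ± 0.20) and in culture (-0.76 ± 0.22), and its second probe set gave -1.68 and -0.87. Cebpa, a transcription factor of TII and liver cells, was lower in TI cells (-0.88) and in culture (-0.97) by its chosen probe set, and its second one was not called (0.08 and -0.01). Ahr, the aryl hydrocarbon receptor, was higher by 0.32 in TI than in fresh TII cells, although 2 of its 3 other probe sets were not called. Of 8 measured genes of retinoid supply and response, 3 were higher and 1 lower in TI than in fresh TII cells and 2 were lower in culture, among them Rdh10, a retinol dehydrogenase (-0.53). Its medians were 0.18 and -0.02.

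Markers of airway secretory (club) cells were split between TI and fresh TII cells. Of 10 measured, 4 were higher and 5 lower in TI than in fresh TII cells, with a median difference of -0.45, and 7 were lower in culture, with a median of -2.07. Over all genes 33.0% were higher and 21.2% lower in TI than in fresh TII cells, 14.0% were lower in culture, and the medians were 0.11 and -0.01. Cyp4b1 had a mean of 9.48 in TI and 9.003 in fresh TII arrays. The summed club marker signal on the linear scale, in which the brightest markers weigh most, was 4037 to 4902 in fresh TII arrays, 1255 to 1414 in TI arrays and 591 to 745 in cultured arrays. Scgb1a1, the club cell secretory protein, read 11.15, 11.08, 10.84 and 11.02 in fresh TII arrays, 8.63, 8.52 and 8.06 in cultured arrays and 7.73, 7.81, 7.89 and 7.42 in TI arrays. Fresh TII arrays were above all others for Scgb1a1, and also for the TII marker Sftpc. Among the enzyme genes given array by array, the same held for Gsta1, Gsta3, Gstm1, Gstt2, Mgst1, Mgst2, Ephx1, Aldh1a1, Sult1a1 and Ces1d. The part of club cell RNA in these results was not tested.

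TII markers were mostly lower outside the fresh TII arrays. Of 14 measured, 13 were lower in TI than in fresh TII cells (median -1.85) and 12 were lower in culture (median -3.11), with summed signals of 39301 to 41096 in fresh TII, 6606 to 17452 in TI and 3972 to 4350 in cultured arrays. Of 12 TI markers, 10 were higher and 1 lower in TI than in fresh TII cells. In culture 6 were higher, 1 was lower and 5 were not called. The lower one, Sec14l3, had a difference of -4.07. The sums of TI markers were 13522 to 14291 in TI, 2668 to 2945 in fresh TII and 3367 to 4595 in cultured arrays. Aqp5, a water channel of TI cells, lay between 10.38 and 10.70 in TI arrays, between 6.17 and 6.32 in fresh TII arrays and between 6.55 and 8.09 in cultured arrays. Of 18 fibroblast, smooth muscle and pericyte markers, 9 were higher in TI than in fresh TII cells. In culture 5 of them were higher and 1 lower. Their sums were 2211 to 3820 in TI, 1072 to 1359 in fresh TII and 3270 to 4037 in cultured arrays. Over all genes 33.0% were higher and 21.2% lower in TI than in fresh TII cells, with 20.5% higher and 14.0% lower in culture. In TI relative to fresh TII cells, where 33.0% of all genes were higher, 7 of 15 macrophage and other leukocyte markers were higher and 1 lower, 5 of 10 endothelial markers were higher and 1 lower, 2 of 3 ciliated markers were higher and 1 lower, and 2 of 3 mesothelial markers were higher. Leukocyte marker sums were 888 to 935 in fresh TII, 900 to 1417 in TI and 1476 to 2975 in cultured arrays. In culture 3 of these 15 markers were higher and 1 lower, with a median difference of 0.06. Lgals3, 1 of the 3, rose from a mean log2 signal of 8.27 in fresh TII to 10.64 in cultured arrays. In such a sum the brightest markers weigh most. The part of these other cells in the differences of the enzyme genes, Gsta4, Aldh1a2 and Gsto1 included, was not tested.

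Cultured arrays varied more than fresh ones in the 14 genes given array by array. The median SD over these genes was 0.36 in cultured arrays, 0.13 in fresh TII arrays and 0.14 in TI arrays, and the cultured SD was above the fresh TII SD in 12 of 14. Cultured replicate 1 was highest and replicate 3 lowest in 9 of the 14 genes, Gstp1, Aldh1a1 and Ephx1 among them. In 3 of the 14, replicate 3 was highest and replicate 1 lowest, as in Gsto1 and Mgst2. With 3 or 4 arrays per group, the number of arrays limits the precision of every value.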

How the data were processed

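RNA of 11 samples was measured on 1 array each. The deposited values are log2 signals, 1 for each probe set in each array, with the log base read from their range. The authors' summarisation, background correction and normalisation steps are not given in the sources used. No further scaling was applied. Among 8799 probe sets, 59 controls were set aside and the other 8740 were tested with no filter. Per the annotation 7006 of these name 1 gene, 308 several and 1426 none. Genes were named through that annotation, and all 50 matched the RefSeq gene table (GRCr8).

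limma 3.58.1 in R 4.3.3 (lmFit, eBayes, two-sided) estimated the mean of each group from all 11 arrays together, and p-values were adjusted by Benjamini-Hochberg over 8740 probe sets. Errors are SE of the log2 difference unless named otherwise. The fit was tested on simulated data. Genes called, at least 2-fold apart and without overlap between arrays in a comparison were given array by array, the remaining ones by counts with called genes named. Of each of 13 lists of pathway or marker genes, up to 3 called genes per comparison, those with the greatest difference, could be named, beside 5 check genes (Scgb1a1, Cyp2f4, Sftpc, Pdpn, Aqp5). The members and the lists were chosen with earlier results of these data known, so no p was adjusted over a list and no set test was run. Samples were not paired by replicate number, since the labels do not say what a number marks. Deviations of same-numbered arrays correlated between -0.20 and 0.28, and those of different-numbered arrays between -0.27 and 0.23. These ranges overlap, so they cannot decide whether a number marks a shared animal or day. Alternatives covered scaling, signal filters, the model, the choice of probe set and leaving out each array.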

Additional observations from a re-analysis of the deposited data

Results flagged for a closer look

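In 6 of 100 groups of 4 arrays examined, 1 for each gene in fresh TI and in fresh TII cells, 1 array stood apart from the other 3 by more than Dixon's 95% critical value allows. Chance gives about 1 such group in 20, so the number is near that. Gstm1 was lowest in fresh TI replicate 3, at 6.73, with the next array at 6.99. Ephx1 was lowest in fresh TII replicate 3, at 8.87, with the next at 9.20. That Ephx1 value stayed above all TI and cultured arrays. The Gstm1 value stayed below all fresh TII arrays but lay within the range of the cultured arrays. Aldh3a1 was highest in fresh TI replicate 4, at 5.38, with the next at 5.12. Ugt1a5 was highest in the same array, at 4.39, with the next at 4.07. Ugt2a1 was highest in fresh TII replicate 3, at 4.10, with the next at 3.60, and was called in no comparison. Ugt2b35 was lowest in fresh TI replicate 3, at 6.16, with the next at 6.27. The cause of these values was not tested.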

How the results depend on the processing

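The direction of the 14 genes given array by array held in all settings tried for TI relative to fresh TII cells and for culture relative to fresh TII cells. Without the dimmer probe sets, 7 instead of 16 genes were called higher in TI than in fresh TII cells, 2 instead of 4 higher in culture, and 20 instead of 33 were called between TI and cultured cells, 15 of them higher. That setting tests 29 of the 50 genes. At an adjusted p under 0.01, 10 genes were called higher in TI than in fresh TII cells. With quantile normalisation or with the SD of the arrays equalised, 11 genes were higher and 14 lower in TI than in fresh TII cells, and 23 of the 30 calls were kept. In culture 22 of 22 were kept under both. Over all probe sets, equalising the SD changed the calls between TI and cultured cells from 3124 higher and 2111 lower to 2294 and 2323, and the median difference from 0.13 to 0.02. Between fresh TI and fresh TII cells that median went from 0.12 to 0.04.

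Signs turned between TI and cultured cells for 3 genes whose difference was near 0. For Gsta3 it was 0.0231 with quantile normalisation, 0.0123 with equal SD and 0.0467 with the mean of all probe sets, and -0.0667 to 0.0488 leaving out 1 array. For Mgst1 it was 0.37 with quantile normalisation, which was called, and 0.15 with equal SD. For Gstm1 it was -0.0158 with median centring, -0.0367 with array weights, -0.0380 with the replicate block and -0.29 with the mean of all probe sets, and -0.15 to 0.24 leaving out 1 array. The cause was not tested. A model with the replicate block gave 15 genes higher and 14 lower in TI than in fresh TII cells, 4 and 17 in culture, and 26 and 6 between TI and cultured cells.

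Leaving out 1 array gave 11 to 20 genes higher and 12 to 14 lower in TI than in fresh TII cells, and 3 to 4 higher and 15 to 18 lower in culture. Dim probe sets limit many of the Ugt and Sult results. Of the 50 genes, 21 lay below the median signal, among them most Ugt and Sult genes. Ugt2b, Ugt2b35, Sult1a1, Sult2a2, Sult2a6 and Sult5a1 lay above it. Array weights ended the call of Ces1d between TI and fresh TII cells (-0.37).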
